A study of Caenorhabditis elegans with 26 samples.

Results

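The genes described here serve protein folding, glycosylation, translocation and degradation at the endoplasmic reticulum (ER) of Caenorhabditis elegans. They were chosen by symbol from a list of 38, drawn up with earlier results of these data known; the rule sets no threshold on a measured value. The deposited table holds 36 of the 38 symbols among its 42533, and all 36 passed the filter on low counts that left 13315 genes to test. They were read in 26 libraries of poly(A) RNA from pools of whole day 1 adults of 5 strains, which differ in flp-17, a neuropeptide gene of the BAG sensory neurons.

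All 5 strains carry zcls4[hsp-4p::GFP]V, a green fluorescent reporter driven by the promoter of the ER chaperone gene hsp-4. AEF276 also carries the loss-of-function allele flp-17(n4894) on chromosome IV (n = 5). AEF378 carries the extrachromosomal array ashEx67, in which the gcy-31 promoter drives flp-17 fused to GFP (gcy-31p::flp-17::GFP), with coel::RFP as its marker (n = 5). The AEF373 array joins flp-17, under its own promoter and with its own 3' end, to unc-122p::mCherry (n = 5). AEF149 carries the array ssrEx1193, made of flp-17p::flp-17::GFP and the marker myo-3p:mCherry, and its parental reporter strain SJ4005 was not outcrossed (n = 5). AEF231 holds the reporter alone, outcrossed from SJ4005 into N2, and was the control (n = 6). AEF231 replicates 5 and 6 have separate titles and sample names but share a group label, 5, and were counted as separate; their counts differed by a chi-square of 7.28 per gene, against 3.2 to 12.5 over the 15 pairs of AEF231 libraries. Extrachromosomal arrays are lost from some cells and animals, so animals of the 3 array strains were picked out by fluorescence 24 h before collection. AEF276 and AEF231 were washed and replated without a sort, and effects of an array cannot be told apart from those of the handling.

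The ER receives secreted and membrane proteins through the Sec61 channel, where signal peptidase removes the signal peptide and oligosaccharyltransferase attaches N-glycans. Chaperones, lectins and disulfide isomerases then fold the chain, and chains that fail to fold are drawn back across the membrane, marked with ubiquitin and pulled out by the AAA ATPase CDC-48 for the proteasome. In the adult hermaphrodite the intestine secretes yolk and the germ line and oocytes make large amounts of protein, so whole-animal RNA pools the demands of several tissues. Roles given below for the translocation, signal peptidase, oligosaccharyltransferase and DnaJ members are those of their yeast or mammalian counterparts.

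By role, 8 of the 36 genes belong to folding and glycoprotein quality control, 5 to oxidative folding, 6 to translocation and signal peptidase, 5 to oligosaccharyltransferase, 5 to the ubiquitin ligase machinery in the ER membrane and 6 to the cytosolic CDC-48 machinery. The remaining gene, ckb-2, encodes a choline kinase of phospholipid synthesis and does not fold proteins. The symbols der-2 (a second Derlin) and emo-1 (the Sec61 gamma subunit) were not matched in the table. Both genes may be present under other names, and such rows were left out because the rule goes by symbol. The genes lie on all 6 chromosomes, with 11 on chromosome I and between 3 and 6 on each of the others. Overlap with another protein-coding gene in the WBcel235 annotation was found for 8 of them (crt-1, cnx-1, enpl-1, marc-6, ostd-1, spcs-2, png-1 and cdc-48.2). Reads of overlapping genes could not be told apart, because the strand setting of the counting is not given in the sources used here.

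Library totals lay between 9659877 and 15528669 counts, and the 36 genes held between 0.993% and 1.08% of them. As a check of the labels, flp-17 averaged 0.310 ± 0.307 CPM (reads of the gene scaled to a common library size) in AEF276. AEF378 had a mean of 7.59 ± 1.01 CPM, AEF373 one of 301 ± 29.3 CPM and AEF149 one of 388 ± 23.4 CPM, against 3.8 ± 1.49 CPM in AEF231, and no strain overlapped AEF231. Batch 2 held replicates 4 and 5 of AEF378 and of AEF373 and replicates 5 and 6 of AEF231, and the other 20 libraries were batch 1. The labels number replicates but do not state that each was grown separately; the p-values therefore rest on the spread among the libraries, which may be technical. In RNA of whole animals, fewer cells of a type and less RNA per cell cannot be told apart.

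Per length, the lectin chaperone gene crt-1 (calreticulin) had the highest mean level over the 26 libraries, at 746 RPKM (CPM per kilobase of exon). The disulfide isomerase gene pdi-3 followed at 447 RPKM, the translocon-associated gene trap-4 at 442 and the ATPase gene cdc-48.1 at 424. The lowest were the CDC-48 cofactor genes npl-4.1, at 17.1 RPKM, and npl-4.2, at 16.7, and dnj-27, an ERdj5-type reductase gene, at 10.6. Within a strain the coefficient of variation of a gene over its libraries was between 2.06% and 17.3%, with a median of 5.58%.

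In one test per gene for any difference among the 5 strains, 31 of the 36 genes passed, against 62.3% of all genes tested. A gene is called, here and below, where edgeR's quasi-likelihood p, adjusted by Benjamini-Hochberg over all 13315 genes, was under 0.05. No gene reached a 2-fold difference in any of the 7 comparisons made, and the largest, for ckb-2 in AEF373 over AEF231, was 0.59 on the log2 scale. The 4 comparisons against AEF231 share its 6 libraries, so their results are given side by side. In these 4 comparisons, 10 of the genes were called lower in AEF373 only, against 8.07% of all genes with that pattern, and 6 were called higher in AEF276 only, against 6.62%. A further 8 were called in none, against 45% of all genes. The pattern higher in AEF276 and lower in AEF373 only was held by 3 (ostb-1, sel-11 and ufd-1), against 1.7% of all genes, and cdc-48.1 alone was higher in AEF276 and lower in both AEF378 and AEF373, against 0.653%. crt-1 and pdi-2 were higher in AEF378 and AEF373 only, against 3.64%. trap-1 and trap-2 were lower in AEF373 and AEF149 only, against 1.16%, and dnj-20 and dnj-27 were lower in AEF149 only, against 2.7%. A call in a single comparison does not show that the strains differ, which the direct comparisons between strains further on address.

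**Figure D1:**
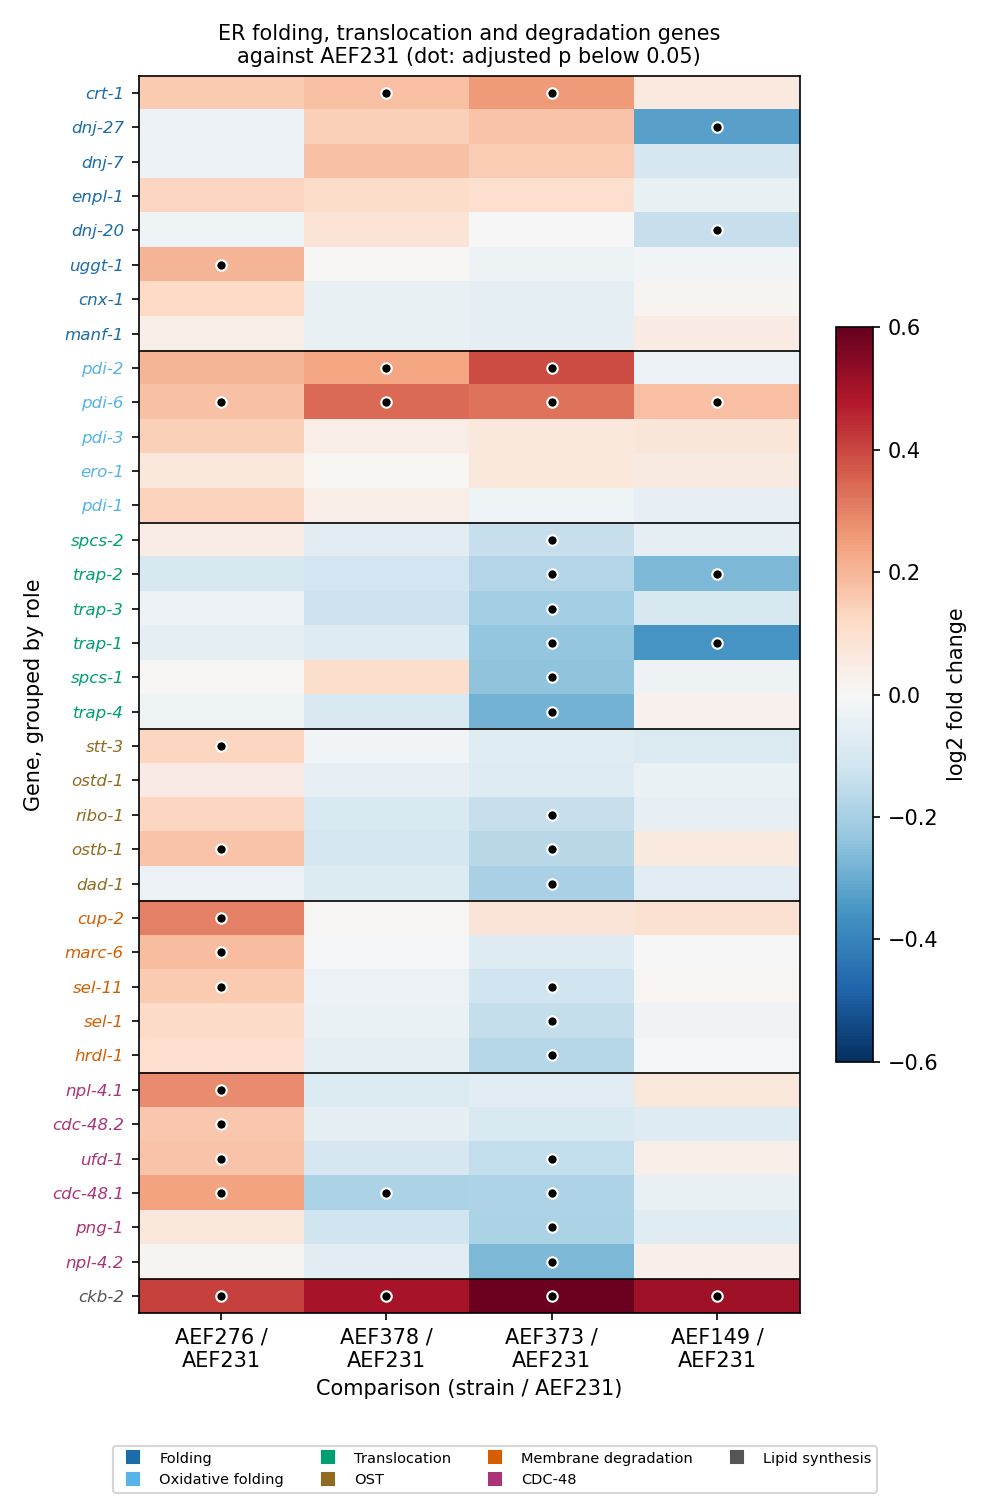
Log2 fold change of each of the 36 genes (down the page, grouped by role, symbols coloured by role) in AEF276, AEF378, AEF373 and AEF149 over AEF231 (across), on a colour scale from -0.6 to 0.6, with a dot where adjusted p was under 0.05. In the AEF276 column 12 genes carry a dot and all are red; in the AEF373 column 16 dotted genes are blue and 4 are red, and ckb-2 and pdi-6 are dotted red in all 4 columns.

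With flp-17 lost (AEF276 over AEF231), some genes of the degradation machinery and 2 of oligosaccharyltransferase were called higher, by 9.47 to 23.2%. Translocation genes had no calls. Of the 36 genes 12 were called higher, against 11.2% of all genes, and 0 were called lower, against 9.08%. At an unadjusted p under 0.05, 21 were higher and 0 lower, against 2470 and 2003 of all 13315 genes. DESeq2 called 14 of the 36 higher and 0 lower. The median log2 fold change was 0.12 over the 36 genes and 0.005 over all genes. By role, 4 of 6 CDC-48 genes were called (median 0.17), 3 of 5 in the ER membrane (median 0.16), 2 of 5 of oligosaccharyltransferase (median 0.13), 1 of 8 of folding, 1 of 5 of oxidative folding, 0 of 6 of translocation (median -0.03, with 0 at an unadjusted p under 0.05), and ckb-2.

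The Derlin gene cup-2 (WBGene00000843, chromosome I:10398990-10400177, minus strand, WBcel235) encodes a channel-like membrane protein through which misfolded chains leave the ER. It was read at 126, 135, 126, 128 and 138 CPM in the 5 AEF276 libraries, against 99.2 to 117 CPM in AEF231 (lowest and highest of 6, median 105). Every AEF276 library lay above every AEF231 library. The log2 fold change of cup-2 was 0.30 ± 0.05 (SE), with an adjusted p of 1.57e-05. The gene of the ubiquitin ligase MARCH6, marc-6, averaged 188 ± 6.39 CPM in AEF276 and 164 ± 8.73 CPM in AEF231 (SD, n = 5 and 6). That is a log2 fold change of 0.18 ± 0.05 (adjusted p = 0.0063). The Hrd1 ligase gene sel-11 averaged 182 ± 6.8 CPM in AEF276 and 165 ± 3.52 CPM in AEF231, with no overlap between the libraries (log2 fold change 0.16 ± 0.04, adjusted p = 0.00892). sel-1, whose product holds the Hrd1 complex together, had a log2 fold change of 0.12 ± 0.05 (adjusted p = 0.0848), and hrdl-1, a Hrd1-like ligase gene, one of 0.10 ± 0.05 (adjusted p = 0.138). All 5 genes of the ER membrane group thus had positive values, and 3 passed the test.

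On the cytosolic side, the p97 ATPase gene cdc-48.1 (WBGene00007352, chromosome II:10560036-10563407, minus strand) was read at 1264, 1508, 1450, 1326 and 1400 CPM in AEF276, against 1089 to 1292 CPM in AEF231 (median 1176). The lowest AEF276 library lay inside the AEF231 range and the other 4 above it. The log2 fold change was 0.24 ± 0.06 (adjusted p = 0.00246). npl-4.1, a cofactor that hands ubiquitinated chains to CDC-48, was read at 30.04, 34.6, 33.3, 36.8 and 35.5 CPM in AEF276, against 26.6 to 30.7 CPM in AEF231 (median 27.3). Only the AEF276 library at 30.04 CPM overlapped AEF231, and the log2 fold change was 0.28 ± 0.07 (adjusted p = 0.00381). Its paralogue npl-4.2, which ends 6391 bases before npl-4.1 on the same strand of chromosome II, had a log2 fold change of 0.02 ± 0.08 (adjusted p = 0.912). How the counting split reads between the pair is not given in the sources used here. With the counts of both summed, an alternative chosen after the data were seen, the log2 fold change was 0.15 ± 0.06 and the adjusted p 0.0528, so the call was lost. Summed counts of cdc-48.1 and cdc-48.2 kept their call, at 0.21 ± 0.06 (adjusted p = 0.0059). The cofactor gene ufd-1 was read at 146, 151.9, 150, 151 and 142 CPM in AEF276, against 120 to 151 CPM in AEF231 (median 132). The AEF276 libraries all lay in or just above the upper part of the AEF231 range, and the log2 fold change was 0.17 ± 0.05 (adjusted p = 0.0211).

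In the lumen, uggt-1, whose product tags unfolded glycoproteins for another round of folding, averaged 169 ± 8.89 CPM in AEF276 and 145 ± 7.71 CPM in AEF231. Its libraries did not overlap and the log2 fold change was 0.20 ± 0.05 (adjusted p = 0.00404). Of the oligosaccharyltransferase genes, ostb-1 was read at 238, 263, 257, 264 and 277 CPM in AEF276, against 220 to 262 CPM in AEF231 (median 238). The groups overlapped, and the log2 fold change was 0.17 ± 0.05 (adjusted p = 0.0153). The catalytic subunit gene stt-3 was called too, at 0.13 ± 0.05 (adjusted p = 0.0357), with no overlap. In all, 4 genes (cup-2, uggt-1, sel-11 and stt-3) lay above AEF231 in every AEF276 library, against 4.45% of all genes, and 0 lay below in every library, against 5.56%.

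Markers of the oogenic germ line were mostly higher in AEF276. Their summed level was 16528 to 19608 CPM in AEF276 (median 18040), against 14783 to 16519 CPM in AEF231 (median 15410), and 13 of 16 were called higher. Sperm markers summed to 5.4 to 9.9 CPM in AEF276, against 38.9 to 74.7 CPM in AEF231, and 9 of the 9 tested were called lower. Body wall muscle markers summed to 3309 to 4225 CPM in AEF276 (median 3812), against 3984 to 5436 CPM in AEF231 (median 4403), and 5 of 8 were called lower. No marker was at 0 in all libraries, and their part in the result was not tested. The count of 12 was 5 without AEF231 replicate 2, 7 without AEF276 replicate 2, 19 without AEF276 replicate 1 and 6 in batch 1 alone, since AEF276 has no library in batch 2. Calls of cup-2, cdc-48.1, npl-4.1, uggt-1 and ckb-2 held with each AEF276 and AEF231 library left out. Here and below, a call was followed only without libraries of the 2 strains compared. The call of ostb-1 was lost without AEF231 replicate 2 or 3 or AEF276 replicate 2 or 5 (adjusted p up to 0.107), that of ufd-1 without AEF231 replicate 1, 2, 4 or 6 or AEF276 replicate 2 or 3 (up to 0.141) and that of stt-3 without any of 9 libraries (up to 0.217). Those of marc-6 (0.0501) and sel-11 (0.0666) were lost without AEF231 replicate 2. The call of cdc-48.2 was lost without any of 6 libraries (adjusted p up to 0.135). With only AEF276 and AEF231 fitted, just the calls of cup-2, cdc-48.1, uggt-1 and ckb-2 were kept.

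**Figure D2:**
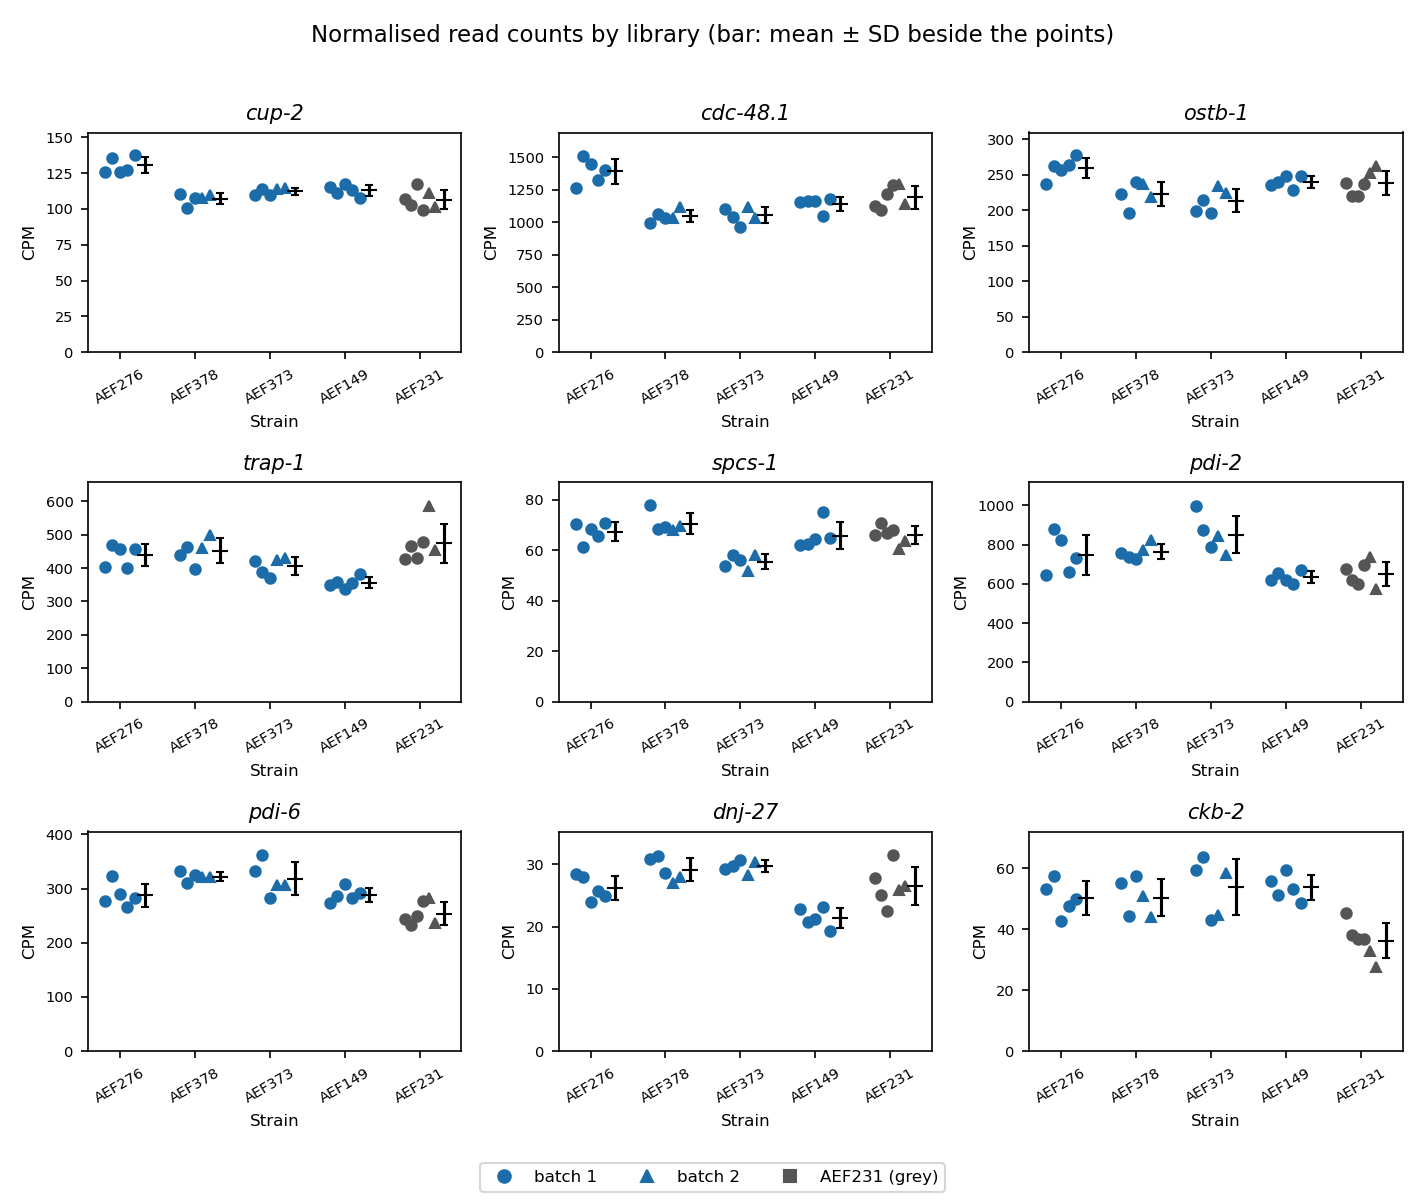
CPM (vertical axes, from 0) of 9 of the genes in each library of AEF276, AEF378, AEF373, AEF149 and AEF231, with circles for batch 1, triangles for batch 2, grey for AEF231, and the mean ± SD beside the points. cup-2 and cdc-48.1 are highest in AEF276, trap-1 and dnj-27 are lowest in AEF149, spcs-1 is lowest in AEF373, and ckb-2 is lowest in AEF231.

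With flp-17 driven by the gcy-31 promoter (AEF378 over AEF231), the luminal isomerase genes pdi-2 and pdi-6 and the lectin chaperone gene crt-1 were higher and cdc-48.1 was lower. Of the 36 genes 4 were called higher, the fourth being ckb-2, against 7.68% of all genes, and 1 was called lower, against 5.92%. The median log2 fold change was -0.04 over the 36 genes and 0.007 over all genes. No gene of translocation, oligosaccharyltransferase or the ER membrane group was called by edgeR. At an unadjusted p under 0.05, 1, 1 and 0 of them were lower, against 1728 of all 13315 genes. DESeq2 called 5 of the 36 higher and 1 lower.

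The thioredoxin-like isomerase gene pdi-6 (WBGene00015168, chromosome X:7066342-7068563, minus strand) was read at 332, 310, 325, 321 and 321 CPM in AEF378, against 232 to 283 CPM in AEF231 (median 247). No library overlapped, and the log2 fold change was 0.34 ± 0.06 (adjusted p = 3.67e-05). This was the sole gene above AEF231 in every AEF378 library, against 3.33% of all genes, and 0 lay below in every library, against 2.9%. pdi-2 (WBGene00003963, chromosome X:4524155-4526536, plus strand), a disulfide isomerase that is also the beta subunit of the prolyl 4-hydroxylase of cuticle collagens, was read at 756, 737, 725, 773 and 824 CPM in AEF378, against 574 to 737 CPM in AEF231 (median 646). Its ranges overlapped between 725 and 737 CPM, and the log2 fold change was 0.23 ± 0.08 (adjusted p = 0.0352). crt-1 averaged 1085 ± 58.3 CPM in AEF378 and 957 ± 89.5 CPM in AEF231, a log2 fold change of 0.18 ± 0.06 (adjusted p = 0.0382). cdc-48.1 was read at 994, 1060, 1030, 1033 and 1112 CPM in AEF378, a log2 fold change of -0.19 ± 0.06 over AEF231 (adjusted p = 0.0164). Summed with cdc-48.2, it had -0.14 ± 0.05 and the call was lost (adjusted p = 0.0717).

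Markers of moulting and larval cuticle summed to 110 to 212 CPM in AEF378 (median 194), against 63.8 to 97.5 CPM in AEF231 (median 87.1), and 7 of 12 were called higher. Of the 16 oogenic markers 6 were called lower, with sums of 13689 to 14933 CPM in AEF378. Of the 8 body wall muscle markers 4 were called higher, with sums of 4606 to 5507 CPM in AEF378, against 3984 to 5436 CPM in AEF231. The part of these markers was not tested. Calls of pdi-6 and ckb-2 held with each library left out. That of crt-1 was lost without AEF231 replicate 1, 2 or 6 or AEF378 replicate 2 or 5 (adjusted p up to 0.0895), that of pdi-2 without AEF231 replicate 2, 3 or 6 or AEF378 replicate 1, 4 or 5 (up to 0.0916) and that of cdc-48.1 without AEF231 replicate 4 (0.0513). The count called higher was 2 without AEF231 replicate 2 or 6, and the count called lower was 3 without AEF378 replicate 1, 2 without AEF378 replicate 3 and 0 without AEF231 replicate 4. Within batch 1 and batch 2, the median over the 36 genes was -0.04 and -0.002.

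With flp-17 driven by its own promoter (AEF373 over AEF231), lower calls were confined to some roles. Each of the 6 matched genes of translocation and signal peptidase was lower, as were most of the CDC-48 group. The isomerase genes pdi-2 and pdi-6 and the chaperone gene crt-1 were higher. Called lower were 16 of the 36 genes, against 16.9% of all genes, and called higher were 4, against 17.9%, the fourth being ckb-2. The median log2 fold change was -0.08 over the 36 genes and -0.007 over all genes. Lower calls comprised 6 of 6 genes of translocation and signal peptidase (median -0.22), 4 of 6 of CDC-48 (median -0.16), 3 of 5 of oligosaccharyltransferase (median -0.14) and 3 of 5 in the ER membrane (median -0.12). None of the 8 folding or 5 oxidative folding genes was called lower by edgeR. At an unadjusted p under 0.05, 0 of them were lower, against 2890 of all 13315 genes. Higher calls comprised 1 of 8 folding genes (median 0.05), 2 of 5 oxidative folding genes (median 0.06) and ckb-2.

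trap-4 (WBGene00013238, chromosome III:11920735-11921586, plus strand), a subunit of the complex that assists the Sec61 channel, was read at 236, 244, 236, 281 and 289 CPM in AEF373, against 282 to 348 CPM in AEF231 (median 305). The 3 AEF373 libraries of batch 1 were the lowest and the 2 of batch 2 reached the lower end of AEF231. The log2 fold change of trap-4 was -0.28 ± 0.07 (adjusted p = 0.002). trap-1 of the same complex (WBGene00022122, chromosome I:2928395-2929628, plus strand) was read at 422, 387, 369, 425 and 431 CPM in AEF373, against 428 to 586 CPM in AEF231 (median 461). All but the highest AEF373 library lay below AEF231, and the log2 fold change was -0.23 ± 0.06 (adjusted p = 0.0017). trap-2 was at 127, 140, 123, 132 and 144 CPM in AEF373, against 134 to 188 CPM in AEF231 (median 142). The libraries overlapped, and the log2 fold change was -0.18 ± 0.06 (adjusted p = 0.016). trap-3 had -0.20 ± 0.06 (adjusted p = 0.007).

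spcs-1 (WBGene00016395, chromosome I:10682472-10683048, minus strand), a small subunit of signal peptidase, was read at 53.7, 57.9, 55.98, 51.7 and 58.2 CPM in AEF373, against 60.3 to 70.8 CPM in AEF231 (median 66.3). Every AEF373 library lay below every AEF231 library, in both batches. Its log2 fold change was -0.24 ± 0.06 (adjusted p = 0.000757), and that of spcs-2 was -0.14 ± 0.05 (adjusted p = 0.0401). In the CDC-48 group, npl-4.2 was read at 25.9, 26.2, 28.3, 28.5 and 21.9 CPM in AEF373, against 28.5 to 34.2 CPM in AEF231 (median 31.7). The ranges met only at 28.5 CPM, and the log2 fold change was -0.27 ± 0.07 (adjusted p = 0.00414). Summed with npl-4.1 it had -0.17 ± 0.05 (adjusted p = 0.011). cdc-48.1 was read at 1101, 1039, 964, 1119 and 1034 CPM in AEF373, a log2 fold change of -0.18 ± 0.06 over AEF231 (adjusted p = 0.00859). ufd-1 was read at 126, 118, 114, 117 and 130 CPM in AEF373, below the AEF231 median of 132 in every library (log2 fold change -0.15 ± 0.05, adjusted p = 0.0268). png-1, the gene of the N-glycanase that strips glycans from retrotranslocated chains, had -0.19 ± 0.07 (adjusted p = 0.0252).

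ostb-1 was read at 199, 214, 196, 234 and 225 CPM in AEF373, against 220 to 262 CPM in AEF231 (median 238), so that the groups overlapped. Its log2 fold change was -0.17 ± 0.05 (adjusted p = 0.00742), beside -0.19 ± 0.06 for dad-1 (adjusted p = 0.0153) and -0.14 ± 0.05 for ribo-1 (adjusted p = 0.0253). In the ER membrane, hrdl-1 had -0.17 ± 0.05 (adjusted p = 0.00456), sel-1 -0.14 ± 0.05 (adjusted p = 0.0161) and sel-11 -0.12 ± 0.04 (adjusted p = 0.023). cup-2 differed from these, at 110, 114, 110, 114 and 115 CPM in AEF373 and a log2 fold change of 0.08 ± 0.05 (adjusted p = 0.2). pdi-2 was read at 996, 874, 787, 845 and 749 CPM in AEF373, above the 574 to 737 CPM of AEF231 in every library. Its log2 fold change was 0.39 ± 0.08 (adjusted p = 0.00014), that of pdi-6 was 0.32 ± 0.06 (adjusted p = 1.87e-05) and that of crt-1 was 0.25 ± 0.06 (adjusted p = 0.000999). Lower than AEF231 in every library were 2 genes (spcs-1 and sel-1), against 6.61% of all genes, and higher in every library was 1 (pdi-2), against 7.97%.

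Moulting markers summed to 254 to 495 CPM in AEF373 (median 460), against 63.8 to 97.5 CPM in AEF231, and 9 of 12 were called higher. Oogenic markers summed to 13503 to 16000 CPM in AEF373 (median 14667), against 14783 to 16519 CPM in AEF231 (median 15410), with 7 of 16 called lower. Body wall muscle markers summed to 4475 to 5676 CPM in AEF373, against 3984 to 5436 CPM in AEF231, with 5 of 8 called higher. Sperm markers summed to 17.6 to 71.3 CPM in AEF373, against 38.9 to 74.7 CPM in AEF231, with 2 of 9 called lower. Their part was not tested. Within batches the median over the translocation and signal peptidase genes was -0.25 in batch 1 and -0.13 in batch 2, with 0 of 6 above 0 in both. In batch 2 spcs-2, trap-3, trap-4 and spcs-1 had -3e-04, -0.072, -0.0975 and -0.165, against -0.219, -0.284, -0.393 and -0.284 in batch 1. In contrast, trap-1 and trap-2 had -0.276 and -0.311 in batch 2, against -0.203 and -0.096 in batch 1. The median of the CDC-48 genes was -0.17 in batch 1 and -0.15 in batch 2. Batch 2 alone, with 2 libraries a strain, called 1 gene higher and 1 lower. The count of 16 called lower was 10 without AEF231 replicate 3 or AEF373 replicate 3, and the count called higher was 7 without AEF231 replicate 4. Of the 20 calls 11 held with each library left out, those of trap-1, trap-4, spcs-1, npl-4.2, cdc-48.1, ostb-1, hrdl-1, pdi-2, pdi-6, crt-1 and ckb-2. The others named were lost, with adjusted p up to 0.0924 for trap-2, 0.0594 for trap-3, 0.165 for spcs-2, 0.123 for ufd-1, 0.0914 for png-1, 0.133 for dad-1, 0.119 for ribo-1, 0.0865 for sel-1 and 0.104 for sel-11. The libraries whose omission ended the call were AEF231 replicate 5 and AEF373 replicates 1, 3 and 4 for trap-2, AEF373 replicate 3 for trap-3, and AEF231 replicate 4 and AEF373 replicate 3 for sel-1. Each of the other 6 calls ended without any of 4 to 7 libraries.

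With flp-17 fused to GFP under the flp-17 promoter (AEF149 over AEF231), trap-1, trap-2, dnj-20 and dnj-27 were lower. pdi-6 and ckb-2 were higher, and the degradation machinery had no calls. AEF149 also differs from AEF231 in outcrossing, GFP fusion, array marker and sort, and their effects cannot be told apart from those of flp-17. Of the 36 genes 2 were called higher, against 6.51% of all genes, and 4 lower, against 11%. Both counts lay near those shares. The median log2 fold change was -0.02 over the 36 genes and -0.008 over all genes. Of the 11 ER membrane and CDC-48 genes, 0 were called by edgeR in either direction and 0 had an unadjusted p under 0.05. At that level 1611 of all 13315 genes were higher and 2229 lower. DESeq2 called the same numbers as edgeR over the 36 genes, 2 higher and 4 lower.

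trap-1 was read at 350, 358, 336, 354 and 382 CPM in AEF149, against 428 to 586 CPM in AEF231 (median 461). The groups did not overlap, and AEF231 replicate 5, at 586 CPM, stood above the other AEF231 libraries. The fitted log2 fold change was -0.36 ± 0.06 (adjusted p = 1.97e-05). trap-2 was read at 116, 122, 116, 116 and 126 CPM in AEF149, against 134 to 188 CPM in AEF231 (median 142). Again no library overlapped, and the log2 fold change was -0.27 ± 0.06 (adjusted p = 0.00109). The same complex's trap-4 was read at 294, 283, 299, 351 and 321 CPM in AEF149, inside or just above the AEF231 range, with a log2 fold change of 0.03 ± 0.07 (adjusted p = 0.859). trap-3 had -0.10 ± 0.06 (adjusted p = 0.324).

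dnj-27 (WBGene00001045, chromosome I:11877803-11887278, plus strand) was read at 22.8, 20.7, 21.2, 23.1 and 19.3 CPM in AEF149, against 22.4 to 31.5 CPM in AEF231 (median 26.2). The AEF149 libraries met only the lowest AEF231 library, and the log2 fold change was -0.33 ± 0.08 (adjusted p = 0.00266). dnj-20, of the ERdj3 type that passes clients to the chaperone BiP, averaged 254 ± 5.23 CPM in AEF149 and 291 ± 16.8 CPM in AEF231. Its libraries did not overlap, and the log2 fold change was -0.14 ± 0.05 (adjusted p = 0.0335), a call lost without any of 9 libraries (adjusted p up to 0.21). Lower than AEF231 in every library were 3 genes (trap-1, trap-2 and dnj-20), against 7.91% of all genes, and higher in every library was 1 (ckb-2), against 4.83%.

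Intestine markers summed to 48798 to 54799 CPM in AEF149 (median 52383), against 56099 to 67637 CPM in AEF231 (median 60455), and 9 of 12 were called lower. Body wall muscle markers summed to 3033 to 3282 CPM in AEF149 (median 3083), against 3984 to 5436 CPM in AEF231 (median 4403), with 6 of 8 called lower and 1 higher. Sperm markers summed to 12.3 to 17 CPM in AEF149, against 38.9 to 74.7 CPM in AEF231, and 8 of 9 were called lower. Their part was not tested. AEF149 has no library in batch 2, and in batch 1 alone the median over the 36 genes was 0. Calls of trap-1, trap-2, dnj-27 and ckb-2 held with each library left out, while that of pdi-6 was lost without AEF231 replicate 3 or AEF149 replicate 3 or 5 (adjusted p up to 0.0958). Without AEF149 replicate 3 or 5, 1 gene was called higher.

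ckb-2 and pdi-6 were called higher than AEF231 in all 4 strains, a pattern held by 0.383% of all genes. ckb-2 (WBGene00000512, chromosome III:4367949-4370160, plus strand) was read at 53.0, 57.4, 42.6, 47.6 and 49.8 CPM in AEF276 and at 55.2, 44.2, 57.3, 50.9 and 44.0 CPM in AEF378. AEF373 had 59.3, 63.7, 43.0, 44.7 and 58.3 CPM, and AEF149 had 55.8, 51.2, 59.5, 53.1 and 48.7 CPM. In AEF231 ckb-2 was read at 27.7 to 45.3 CPM (median 36.8). Every AEF149 library lay above AEF231, and each of the other strains overlapped it only at 42.6 to 45.3 CPM. The log2 fold changes of ckb-2 were 0.41 ± 0.11 for AEF276 (adjusted p = 0.00748) and 0.49 ± 0.10 for AEF378 (adjusted p = 0.0017). For AEF373 the value was 0.59 ± 0.10 (adjusted p = 6.02e-05) and for AEF149 it was 0.51 ± 0.11 (adjusted p = 0.000911). Since all 4 rest on the same AEF231 libraries, they are not independent of each other. The lowest AEF231 values, 32.9 and 27.7 CPM, were the batch 2 libraries. Within batch 1 the log2 fold changes were 0.34, 0.40, 0.49 and 0.48 in AEF276, AEF378, AEF373 and AEF149, and within batch 2 they were 0.66 in AEF378 and 0.78 in AEF373.

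pdi-6 was read at 277, 323, 290, 266 and 283 CPM in AEF276, 332, 362, 282, 307 and 306 in AEF373 and 273, 286, 309, 283 and 291 in AEF149. The AEF231 range of 232 to 283 CPM overlapped with each of these. The log2 fold change was 0.18 ± 0.06 both in AEF276 (adjusted p = 0.0301) and in AEF149 (adjusted p = 0.0279), beside the larger values of AEF378 and AEF373 above. In AEF276 that call was lost without AEF231 replicate 1, 2, 3 or 6 or AEF276 replicate 2 or 3 (adjusted p up to 0.235).

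The strains with abundant and with lost flp-17 were set against each other directly (AEF373 over AEF276), without AEF231 as the reference. The estimates still depend in part on AEF231 through the batch term of the fit, because AEF276 has no library in batch 2. Here most of the 36 genes were lower, and all members of 3 roles: 6 of 6 CDC-48 genes (median log2 fold change -0.30), 5 of 5 in the ER membrane (median -0.26) and 5 of 5 of oligosaccharyltransferase (median -0.20). Of translocation and signal peptidase 5 of 6 were lower (median -0.18). Folding and oxidative folding genes were called in both directions, 2 higher and 2 lower of 8, and 1 higher and 1 lower of 5. Over the 36 genes 24 were called lower, against 26.3% of all genes, and 3 higher, against 26.7%, with medians of -0.18 over the 36 genes and 0.02 over all genes. Lower in every library were 17, against 16.6% of all genes, and higher in every library 0, against 14%.

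cdc-48.1 averaged 1051 ± 61.7 CPM in AEF373 and 1389 ± 97 CPM in AEF276 (SD, n = 5 each), without overlap. Its log2 fold change of -0.42 ± 0.06 was the largest of the 36 (adjusted p = 3.24e-07), and summed with cdc-48.2 it was -0.36 ± 0.06 (adjusted p = 3.54e-06). npl-4.1 averaged 26.6 ± 1.18 CPM in AEF373 and 34.1 ± 2.58 CPM in AEF276 (log2 fold change -0.35 ± 0.07, adjusted p = 0.00014). npl-4.2 averaged 26.2 ± 2.66 CPM in AEF373 and 32.7 ± 2.12 CPM in AEF276 (log2 fold change -0.29 ± 0.08, adjusted p = 0.00329). Neither gene overlapped between the strains, and summed they had -0.32 ± 0.06 (adjusted p = 2.01e-05). ostb-1 averaged 214 ± 16.5 CPM in AEF373 and 260 ± 14.6 CPM in AEF276 (log2 fold change -0.34 ± 0.05, adjusted p = 2.58e-06). ufd-1, at the library values given above, had -0.32 ± 0.06 (adjusted p = 1.55e-05). Both were lower in every AEF373 library.

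In the ER membrane the 5 genes had nearly the same fold change, between -0.28 and -0.22 on the log2 scale. cup-2 averaged 112 ± 2.51 CPM in AEF373 and 130 ± 5.61 CPM in AEF276 (log2 fold change -0.22 ± 0.05, adjusted p = 0.000306). All 5 were lower in every AEF373 library. Among luminal genes, uggt-1 had -0.24 ± 0.05 (adjusted p = 0.000424) and the calnexin gene cnx-1 -0.18 ± 0.05 (adjusted p = 0.00225). The opposite direction was called for dnj-27, at 0.20 ± 0.08 (adjusted p = 0.0361), dnj-7, a p58IPK-type co-chaperone gene, at 0.19 ± 0.07 (adjusted p = 0.0224) and pdi-6, at 0.15 ± 0.06 (adjusted p = 0.0457). pdi-2 had 0.19 ± 0.08 (adjusted p = 0.0555).

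All 16 oogenic markers were called lower in this comparison, with summed levels of 13503 to 16000 CPM in AEF373 and 16528 to 19608 CPM in AEF276, and a median log2 fold change of -0.33. All 8 body wall muscle markers and 10 of 12 moulting markers were called higher. Of 9 sperm markers 8 were called higher (median log2 fold change 2.72), with sums of 17.6 to 71.3 CPM in AEF373 and 5.4 to 9.9 CPM in AEF276. Of 12 intestine markers 7 were called higher and 3 lower. Their part was not tested. In batch 1 alone, the median over the 36 genes was -0.20. Of the 27 calls 17 held with each AEF373 and AEF276 library left out. Among them were all 5 genes of the ER membrane, all 6 of CDC-48, ostb-1, ribo-1, stt-3, spcs-1, uggt-1 and cnx-1. Of the role counts given above, those of oligosaccharyltransferase and translocation rest on less: dad-1 and ostd-1 were not called by DESeq2 and lost their calls without any of 9 and 8 libraries (adjusted p up to 0.491 and 0.274). The calls of trap-1, trap-3, trap-4 and spcs-2 were lost without any of 6, 7, 3 and 3 libraries (up to 0.151, 0.275, 0.0737 and 0.102). No higher call held throughout: that of dnj-27 was lost without AEF276 replicate 4 or 5 (adjusted p up to 0.0793), that of dnj-7 without AEF276 replicate 4 (0.0694) and that of pdi-6 without AEF276 replicate 1, 4 or 5 or AEF373 replicate 2 (up to 0.137). The count called higher was 0 without AEF276 replicate 4, 1 without AEF276 replicate 5 and 5 without AEF276 replicate 2 or AEF373 replicate 3.

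**Figure D3:**
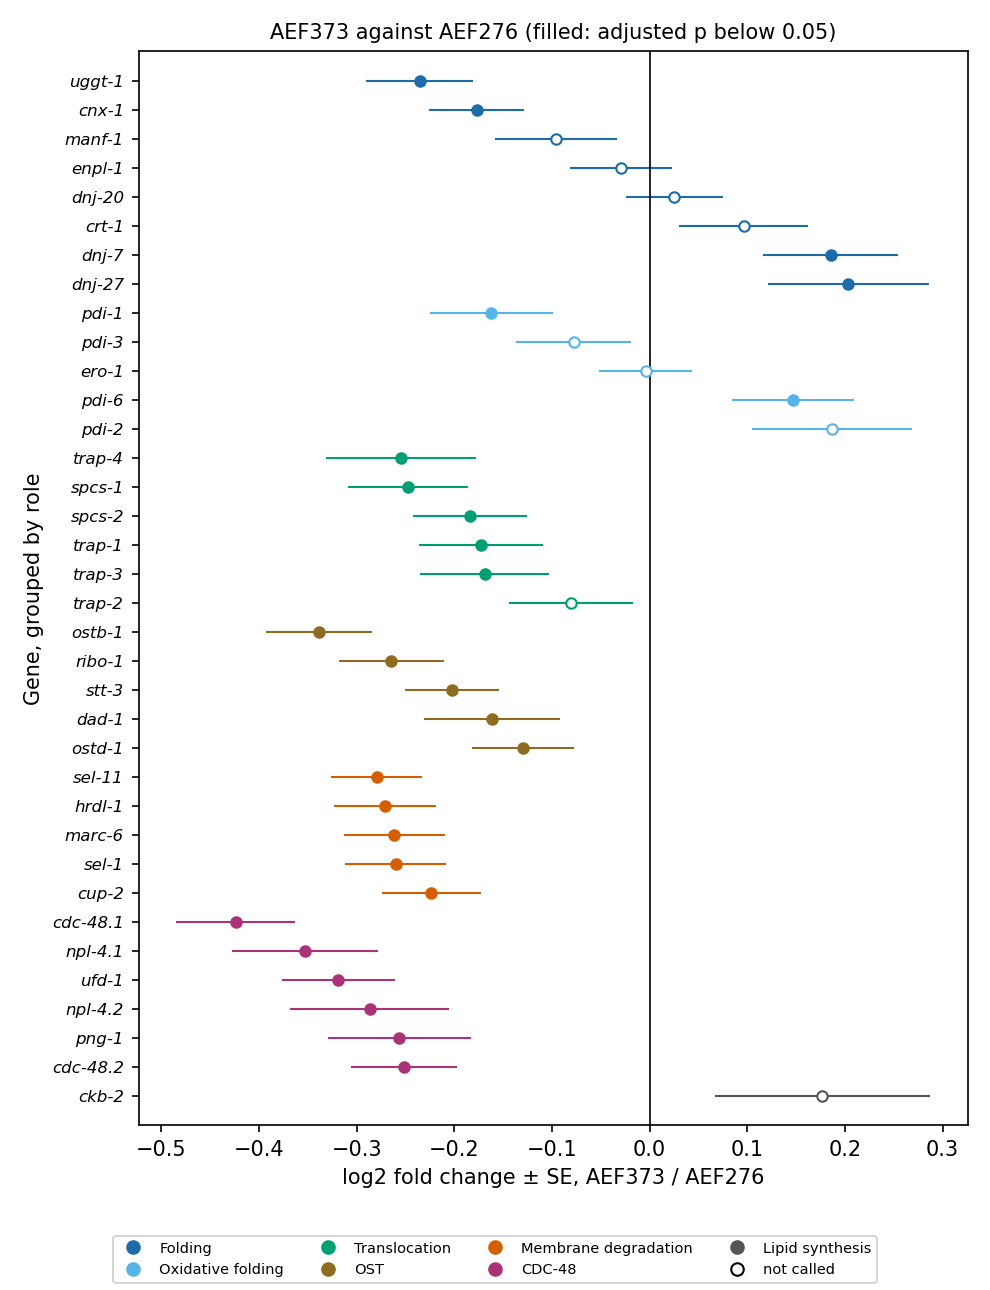
Log2 fold change ± SE of AEF373 over AEF276 (horizontal axis) for the 36 genes (down the page, grouped and coloured by role), filled where adjusted p was under 0.05. All genes of the ER membrane, CDC-48 and oligosaccharyltransferase groups are filled and lie left of 0, while folding and oxidative folding genes lie on both sides.

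The 2 strains with flp-17 under its own promoter had flp-17 means of 388 CPM in AEF149 and 301 CPM in AEF373, and 13 of the 36 genes were called between them. Called higher were 7 of the 36, against 13.2% of all genes, and called lower were 6, against 19%, with medians of 0.06 over the 36 genes and -0.01 over all genes. The 6 lower calls were 5 of 8 folding genes (median -0.14) and pdi-2. The 7 higher calls were 2 of 6 translocation and signal peptidase genes (trap-4 and spcs-1), 1 of 5 of oligosaccharyltransferase (ostb-1), 2 of 5 in the ER membrane (sel-11 and hrdl-1) and 2 of 6 of CDC-48 (ufd-1 and npl-4.2). The GFP fusion, the co-injected marker and the outcrossing differ with the array and cannot be told apart.

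dnj-27 was read at 22.8, 20.7, 21.2, 23.1 and 19.3 CPM in AEF149, against 29.3, 29.7, 30.7, 28.3 and 30.4 CPM in AEF373. The lowest AEF373 library lay well above the highest AEF149 library. Its log2 fold change was -0.50 ± 0.08 (adjusted p = 9.84e-06), the largest of the 36 genes in this comparison. pdi-2 was read at 622, 656, 621, 597 and 672 CPM in AEF149, below the 749 to 996 CPM of AEF373 in every library (log2 fold change -0.43 ± 0.08, adjusted p = 0.000163). dnj-7 had -0.25 ± 0.07 (adjusted p = 0.00433), crt-1 -0.20 ± 0.07 (adjusted p = 0.0202), enpl-1, the gene of the chaperone GRP94, -0.14 ± 0.05 (adjusted p = 0.0292) and dnj-20 -0.14 ± 0.05 (adjusted p = 0.0316). All but enpl-1 were lower in every AEF149 library.

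Among the genes that were higher, trap-4 averaged 310 ± 26.8 CPM in AEF149 and 257 ± 25.8 CPM in AEF373 (log2 fold change 0.31 ± 0.08, adjusted p = 0.00233). npl-4.2 averaged 33 ± 1.61 CPM in AEF149 and 26.2 ± 2.66 CPM in AEF373 (log2 fold change 0.30 ± 0.08, adjusted p = 0.00364). Its AEF149 libraries, at 31.2 to 35.5 CPM, all lay above AEF373, whereas trap-4 overlapped. ostb-1 had 0.22 ± 0.05 (adjusted p = 0.00139), spcs-1 0.21 ± 0.06 (adjusted p = 0.00643), ufd-1 0.18 ± 0.06 (adjusted p = 0.0127), hrdl-1 0.16 ± 0.05 (adjusted p = 0.0158) and sel-11 0.13 ± 0.05 (adjusted p = 0.0245). trap-1, with -0.13 ± 0.06, was not called (adjusted p = 0.125). Higher than AEF373 in every library were 6 of the 36, against 8.44% of all genes, and lower 5, against 10.2%.

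Of the markers, 10 of 12 for moulting, 7 of 8 for body wall muscle, 7 of 9 for sperm and 8 of 12 for intestine were called lower in AEF149 than in AEF373, and 2 for intestine and 7 of 16 for the oogenic germ line were called higher. Their part was not tested. Calls of dnj-27, pdi-2, dnj-7, trap-4, npl-4.2, ostb-1, spcs-1 and ufd-1 held with each library left out. Those of crt-1 (adjusted p up to 0.0892, without AEF373 replicate 1 or 2 or AEF149 replicate 1), enpl-1 (0.0964, without AEF373 replicate 1 or AEF149 replicate 1, 3 or 4), dnj-20 (0.067, without AEF373 replicate 3 or AEF149 replicate 2, 4 or 5), hrdl-1 (0.073, without AEF149 replicate 1) and sel-11 (0.0582, without AEF373 replicate 2) did not. In batch 1 alone the median over the 36 genes was 0.10.

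**Figure D4:**
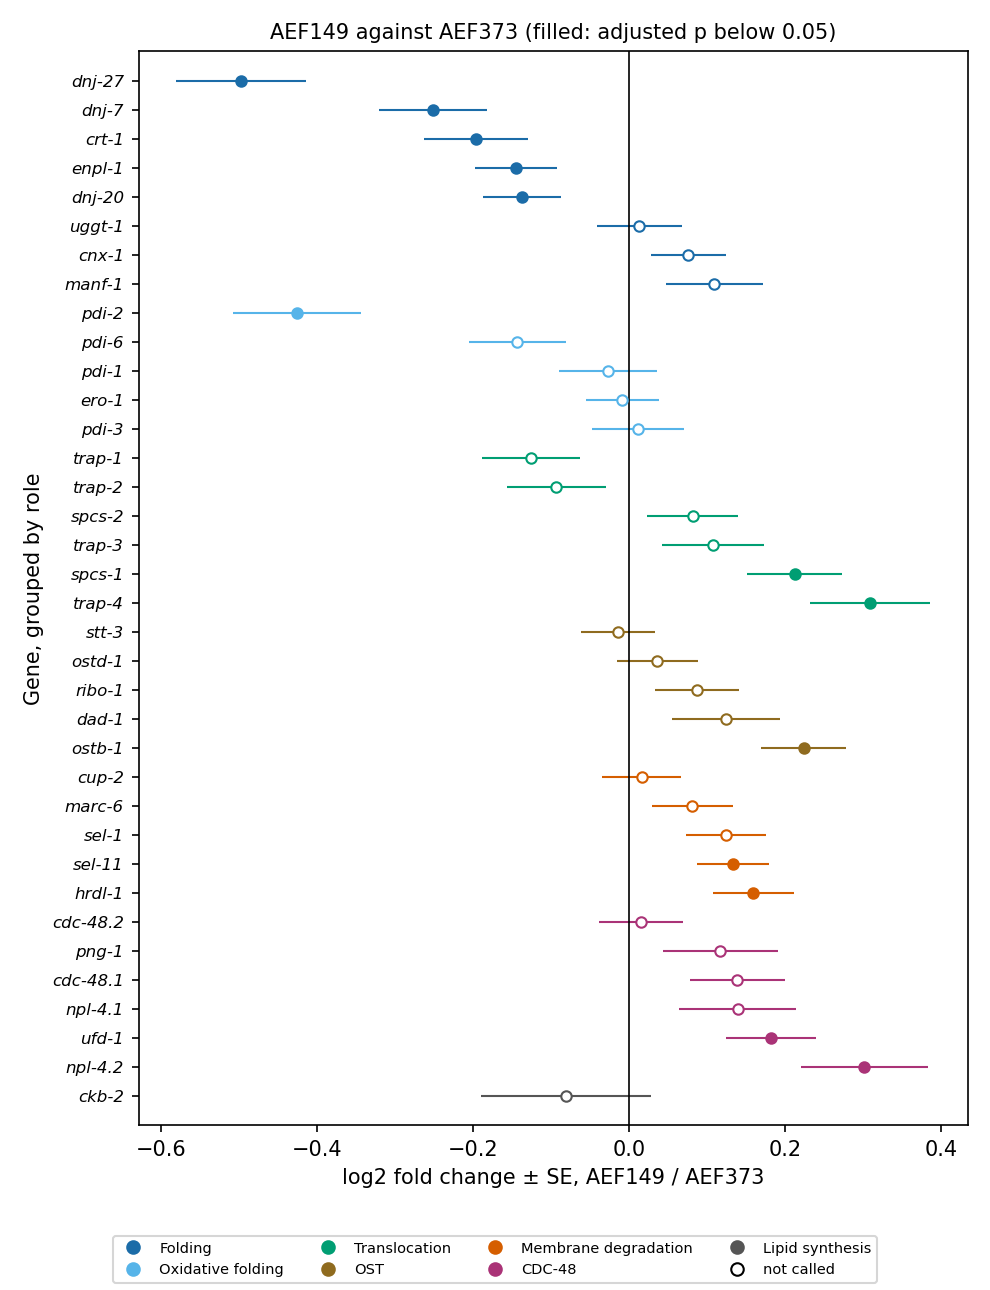
Log2 fold change ± SE of AEF149 over AEF373 (horizontal axis) for the 36 genes (down the page, grouped and coloured by role), filled where adjusted p was under 0.05. The 6 filled points left of 0 are dnj-27, pdi-2, dnj-7, crt-1, enpl-1 and dnj-20, and the 7 right of 0 belong to translocation, oligosaccharyltransferase, ER membrane and CDC-48 genes.

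AEF378 and AEF373, whose flp-17 means were 7.59 and 301 CPM, differed in 1 of the 36 genes. spcs-1 was read at 77.8, 68.4, 69.1, 67.8 and 69.4 CPM in AEF378, against 53.7, 57.9, 55.98, 51.7 and 58.2 CPM in AEF373. The groups were well apart, and the log2 fold change was 0.34 ± 0.06 (adjusted p = 3.86e-05). That is 1 higher, against 3.68% of all genes, and 0 lower by edgeR, against 5.92%. DESeq2 also called 1 higher and 0 lower. At an unadjusted p under 0.05, 6 were higher and 0 lower, against 1449 and 1625 of all 13315 genes. spcs-1 was likewise the only one of the 36 higher in every library, against 2.56% of all genes, and 0 were lower in every library, against 3.39%. The median over the 36 genes was 0.05 (0.003 over all genes), and within batches it was 0.03 and 0.05. The count called higher was 2 without AEF373 replicate 4. A p that misses the threshold does not show that the other 35 genes were alike in both strains.

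Other genes of the same pathways, from lists outside the 36, were read for comparison. Of all genes, 11.2% were called higher and 9.08% lower in AEF276 over AEF231, and 17.9% and 16.9% in AEF373. The shares were 7.68% and 5.92% in AEF378, and 6.51% and 11% in AEF149. In AEF373 over AEF276 they were 26.7% and 26.3%, and in AEF149 over AEF373 13.2% and 19%. The lists were not tested against these shares. Of 8 further genes of ER import and processing, such as the Sec61 channel and signal recognition particle genes, 2 were called higher and 0 lower in AEF276 over AEF231, 0 and 4 in AEF373, 0 and 1 in AEF378 and 0 and 1 in AEF149. The channel gene sec-61.A averaged 920 ± 126 CPM in AEF373 and 833 ± 45.6 CPM in AEF149, against 1025 ± 118 CPM in AEF231. Its log2 fold changes were -0.17 ± 0.06 (adjusted p = 0.0245) in AEF373 and -0.21 ± 0.06 (adjusted p = 0.0141) in AEF149. tram-1, whose product sits beside the channel, averaged 218 ± 15.1 CPM in AEF373 and 251 ± 8.5 CPM in AEF231 (log2 fold change -0.21 ± 0.04, adjusted p = 0.00024). In AEF373 over AEF276, 0 of the 8 were called higher and 7 lower.

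Of 9 further ER degradation genes found of 13 listed, 2 were called higher and 0 lower in AEF276 over AEF231, 0 and 5 in AEF373, 0 and 1 in AEF378 and 0 and 0 in AEF149 by edgeR, where 0 had an unadjusted p under 0.05. In AEF373 over AEF276, 0 were called higher and 9 lower. The ubiquitin-conjugating enzyme gene ubc-7, which works with the Hrd1 ligase, averaged 221 ± 10.3 CPM in AEF373 and 277 ± 8.06 CPM in AEF276. Its log2 fold change was -0.35 ± 0.05 (adjusted p = 5.06e-08). It was also lower in AEF373 than in AEF231, by -0.25 ± 0.04 (adjusted p = 6.17e-06), and higher in AEF149 than in AEF373, by 0.28 ± 0.05 (adjusted p = 6.09e-06).

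Of 13 further chaperone and folding enzyme genes found of 14 listed, 6 were called higher and 0 lower in AEF373 over AEF231, 4 and 0 in AEF378, 2 and 2 in AEF276 and 2 and 3 in AEF149. The BiP genes hsp-4 and hsp-3 were called in different strains. hsp-4 averaged 567 ± 54.2 CPM in AEF276 and 526 ± 21.2 CPM in AEF149, against 467 ± 36.4 CPM in AEF231 (log2 fold changes 0.28 ± 0.06, adjusted p = 0.00121, and 0.17 ± 0.06, adjusted p = 0.0492). hsp-3 averaged 894 ± 57.5 CPM in AEF378 and 892 ± 82.6 CPM in AEF373, against 760 ± 76.5 CPM in AEF231 (log2 fold changes 0.24 ± 0.07, adjusted p = 0.0157, and 0.23 ± 0.07, adjusted p = 0.00691). AEF149 over AEF373 gave 1 higher and 8 lower of the 13, hsp-4 being the 1 and hsp-3 among the 8. C14B9.2, a disulfide isomerase gene, averaged 70.5 ± 2.06 CPM in AEF378, 83.9 ± 11.9 CPM in AEF373 and 62.2 ± 3.52 CPM in AEF149, against 45.4 ± 3.01 CPM in AEF231. Its log2 fold changes were 0.65 ± 0.06 (adjusted p = 7.45e-11), 0.89 ± 0.06 (adjusted p = 1.44e-15) and 0.40 ± 0.06 (adjusted p = 5.09e-06). Among the larger changes of that list was fkb-7, a prolyl isomerase gene of low level, which averaged 4.89 ± 1.24 CPM in AEF373 and 1.87 ± 0.498 CPM in AEF231 (log2 fold change 1.42 ± 0.22, adjusted p = 3.15e-06). fkb-7 averaged 1.78 ± 0.34 CPM in AEF149, lower than in AEF373 (log2 fold change -1.64 ± 0.24, adjusted p = 1.14e-06).

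Of 5 ER stress sensor genes, xbp-1, the transcription factor gene of the IRE-1 branch, was higher in AEF378, at 291 ± 34.2 CPM, and in AEF373, at 287 ± 41.7 CPM, and lower in AEF149, at 233 ± 6.37 CPM, against 248 ± 23.5 CPM in AEF231. The log2 fold changes were 0.25 ± 0.05 (adjusted p = 0.000907), 0.22 ± 0.05 (adjusted p = 0.00102) and -0.18 ± 0.06 (adjusted p = 0.0156). atf-4, of the PEK-1 branch, averaged 31.8 ± 2.28 CPM in AEF149, against 40.8 ± 4.35 CPM in AEF231 (log2 fold change -0.31 ± 0.08, adjusted p = 0.00405), and in AEF276 over AEF231 it had -0.39 ± 0.08 (adjusted p = 0.000591). Gene counts do not show xbp-1 splicing or the state of the sensor proteins.

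Within strains and batches, after the mean of each strain and batch had been taken off, the 36 genes varied together only weakly over the 26 libraries. The median Pearson r was 0.18 over 88 pairs of genes of the same role and 0.07 over 542 pairs of different roles, a description without a test, since all pairs share the same libraries and depth.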

How the data were processed

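RNA of pooled whole day 1 adults was extracted with Trizol and a column cleanup and enriched for poly(A), per the labels' protocols. The authors deposited raw read counts per gene and library as whole numbers; STAR 2.7.11b and the build ce11 are named in the submitters' processing notes. For the counting tool, strand setting and annotation nothing is stated in the sources. Positions and exon lengths were taken from Ensembl's WBcel235 gene models; WBcel235 is the assembly that ce11 names.

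Counts were used as deposited. Genes were kept by edgeR's filterByExpr by strain (13315 of 42533), scaled by TMM and fitted with edgeR 4.0.16 (R 4.3.3, limma 3.58.1) by robust quasi-likelihood on the 26 libraries together, the model holding strain and batch. Benjamini-Hochberg adjustment ran over the 13315 genes, and 0.05 was the threshold. edgeR's common coefficient of biological variation came to 8.01%. CPM are TMM-scaled, and RPKM divide them by the union of exons. Library totals were 9659877 to 15528669, and CPM of the members in a library lay between 19.3 and 1508. The counting error expected of a member's mean count was 0.793 to 6.11% of that count, and it was at or above the observed coefficient of variation between libraries in 13 of the 180 pairs of gene and strain.

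The members and lists were chosen with earlier results of these data known. Given with all library values are the members that were, in some comparison, among the 4 largest changes of those called. The other members are given by counts, or by name with fold change, SE and adjusted p. From the lists outside the 36, hsp-3, hsp-4 and at most 4 genes past the threshold per list and comparison, by size of change, could be named. The alternatives were RLE size factors, DESeq2 1.42.0, no filter on low counts, no batch term, each batch alone, a fit of only the strains compared, a fit blocked on replicate number, each library left out and, added after the data were seen, summed counts of npl-4.1 with npl-4.2 and of cdc-48.1 with cdc-48.2. When a library was left out, the call of a gene was followed only in the comparisons that the strain of that library took part in. Protein and promoter sequences were not used here. Replicate pairs, 55 in all, differed by a chi-square of 3.17 to 12.9 per gene, so no 2 libraries agreed within sampling noise.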

Additional observations from a re-analysis of the deposited data

Results flagged for a closer look

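For each of the 36 genes in each of the 5 strains, the highest and lowest library were compared with the rest by Dixon's criterion. It marked 11 of 180 groups, where chance marks about 1 in 20. In AEF378, cup-2 was low in replicate 2, at 101 CPM (others 108 to 110), and spcs-1 was high in replicate 1, at 77.8 CPM (others 67.8 to 69.4). In AEF373, ribo-1 was high in replicate 4, at 409 CPM (others 364 to 376). In AEF149 replicate 1, cnx-1 was high at 280 CPM (others 254 to 259), sel-1 at 223 CPM (others 207 to 211) and hrdl-1 at 154 CPM (others 134 to 140). In AEF149 replicate 4, spcs-1 was high at 75.1 CPM (others 62.0 to 64.9), while marc-6 was low at 144 CPM (others 169 to 173) and cdc-48.1 at 1044 CPM (others 1156 to 1180). In AEF231 replicate 5, trap-1 was high at 586 CPM (others 428 to 480) and hrdl-1 low at 126 CPM (others 141 to 145).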

How the results depend on the processing

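No named call changed sign under any alternative run. Of the 84 calls of single genes, 81 were kept under DESeq2, 80 with RLE size factors, 75 without the batch term, 69 with the replicate block, 67 with only the strains compared, 66 without the filter on low counts and 65 in batch 1 alone. In batch 2 alone, with 2 libraries a strain, 4 of 26 were kept. In AEF276 over AEF231 the 12 genes called higher were 6 in batch 1 alone and 4 with only the strains compared. In AEF378 over AEF231 the 4 higher were 2 in batch 1 alone, in batch 2 alone and with the replicate block, and the 1 lower was 0 in batch 2 alone. In AEF373 over AEF231 the 4 higher and 16 lower were 1 and 1 in batch 2 alone. In AEF149 over AEF231 the 2 higher were 1 with the replicate block. In AEF378 over AEF373 the 1 higher was 2 without the filter and 0 in batch 2 alone, and the 0 lower were 1 without the filter and 1 in batch 1 alone. In AEF373 over AEF276 the 3 higher were 5 without the filter. The cause of these changes was not tested. With each library left out in turn, the counts higher and lower were 5 to 19 and 0 to 0 in AEF276 over AEF231, 2 to 4 and 0 to 3 in AEF378 over AEF231, 4 to 7 and 10 to 16 in AEF373 over AEF231, 1 to 2 and 3 to 4 in AEF149 over AEF231, 1 to 2 and 0 to 0 in AEF378 over AEF373, 6 to 9 and 4 to 6 in AEF149 over AEF373, and 0 to 5 and 17 to 23 in AEF373 over AEF276. Same-numbered libraries of different strains had correlations of -0.301 to 0.237 (median -0.0343, 12 of 50 pairs over 0.1). Those with different numbers had -0.334 to 0.334 (median -0.00204, 56 of 220 pairs over 0.1). Same-numbered libraries were thus no more alike, but correlations cannot show whether they were grown or collected together. With the replicate block 8 genes were called higher in AEF276 over AEF231, and 2 higher and 22 lower in AEF373 over AEF276.

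The lowest value of any of the 36 genes in a library was 19.3 CPM. Reads of overlapping genes could not be told apart, and how reads shared by npl-4.1 and npl-4.2 were counted is not given in the sources used here.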
